A study of Homo sapiens with 6 samples.

Results

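ATP-binding cassette (ABC) genes encode a family of membrane pumps, and 45 protein-coding genes of the human annotation (GENCODE 29) carry a symbol of its subfamilies ABCA to ABCG. Members were taken by symbol alone, with no threshold on a measured value, leaving out the peptide transporters named TAP; the family itself was chosen with earlier results of these data known. Of the 45, 44 were among the 33890 genes of the deposited table, and ABCB5 was not. They were measured in LN229, an established human glioblastoma (grade IV glioma) line. The 2 groups were untreated control cells and cells kept for 48 h in 800 µM ursodeoxycholic acid (UDCA), a hydrophilic bile acid given to patients with cholestatic liver disease, with 3 libraries of polyadenylated RNA each. Both groups were this single line in serum-containing medium, and the labels do not tell whether a group's libraries stem from separate cultures, so p-values cover only the spread among these 6 libraries, and that spread may be technical. Values are FPKM, reads scaled by merged exon length and by library total, as mean ± SD over 3 libraries. A log2 change is the UDCA mean minus the control mean of log2(FPKM + 1), and it is too small for low genes. Reads recovered from the FPKM values came to between 15988951 and 17743022 per library, so 3 reads in a gene of 1 kb stood for 0.169 to 0.188 FPKM, counting error only.

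ABC transporters bind and hydrolyse ATP in paired nucleotide-binding domains and use it to move substrates across a membrane. In hepatocytes, ABCB11 and ABCC2 export bile salts and conjugated organic anions into bile, while ABCC3 and ABCC4 sit in the basolateral membrane and return bile salts to the blood. ABCA1 and ABCG1 move cholesterol and phospholipid from cells to lipoproteins and are targets of the oxysterol receptors LXR. ABCB1, ABCC1 and ABCG2 are the pumps best known for drug resistance and for efflux at the blood-brain barrier.

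The line's labelled identity was checked against glioma markers. VIM, NES, CD44, EGFR, S100B, SOX2 and OLIG2 were all above 1 FPKM in every library, whereas GFAP, the astrocyte filament gene, stood at 0.612 ± 0.0807 FPKM in control and 0.505 ± 0.0586 with UDCA. Of the 7 markers that reached 1 FPKM in 3 or more libraries and so were tested (limma, called at an adjusted p under 0.05), 5 were lower with UDCA, 1 (EGFR) was higher and 1 (OLIG2) was not called, where of all 14380 genes tested 80.8% were called, 45.1% higher and 35.7% lower. SOX2 fell 29.9-fold and S100B fell 22.8-fold. Summed markers of other cell types stayed low: hepatocyte genes between 0.136 and 0.179 FPKM in control and between 0.198 and 0.251 with UDCA, and immune genes between 0.311 and 0.537 and between 0.127 and 0.513. Endothelial markers summed to between 0.192 and 0.280 FPKM and between 0.585 and 0.682, mostly from VWF, with CDH5 at 0 in every control library. Epithelial markers summed to between 3.36 and 3.87 FPKM and between 5.45 and 6.13, nearly all from KRT8, with CDH1 at 0 in every control library. Their part in the results was not tested. In bulk RNA, a change in every cell and a change in the share of cells that express a gene cannot be told apart.

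Of the ABC genes tested, ABCC3 had the largest rise, and ABCA13 and ABCA6 fell 24.6-fold and 24.7-fold by the ratio of means. Genes that reached 1 FPKM in 3 or more of the 6 libraries entered the limma test, p-values adjusted over all 14380 of them, and called at an adjusted p under 0.05. Of the 44 listed ABC genes 24 reached that minimum, of which 11 were higher, 9 lower and 4 not called, or 83.3% called. Among all genes tested 80.8% were called (45.1% higher and 35.7% lower), so the share of ABC genes called was near the background of the treatment. The median log2 change was 0.021 over the 24 and 0.095 over all genes tested. The groups did not overlap in 20 of the 24, against 82.8% of all genes tested. The ABC genes called with at least a 2-fold ratio of means were 5 higher (ABCC3, ABCA1, ABCA5, ABCB1 and ABCC1, against 17.8% of all genes tested) and 4 lower (ABCA13, ABCA6, ABCA7 and ABCB8, against 15.9%). ABCA13, ABCA6 and ABCA7 reached the minimum through the control libraries only. ABCB1 reached it through the 3 UDCA libraries, as only 1 control library was at 1 FPKM. The 20 listed ABC genes under the minimum were looked at in 2 other tests. The share given beside each test is over all its genes, including those that reached the minimum. It is therefore not a like background for these 20. With no filter on low values limma called 1 of them higher and 5 lower (of all 33890 genes 42.6% were called, 22.8% higher and 19.8% lower). Voom on the recovered reads of genes with a mean of at least 10 reads, an alternative added after seeing the data, took 12 of them and called 4 higher and 5 lower (of 16764 genes 80.6% were called, 44.1% higher and 36.5% lower).

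**Figure D1:**
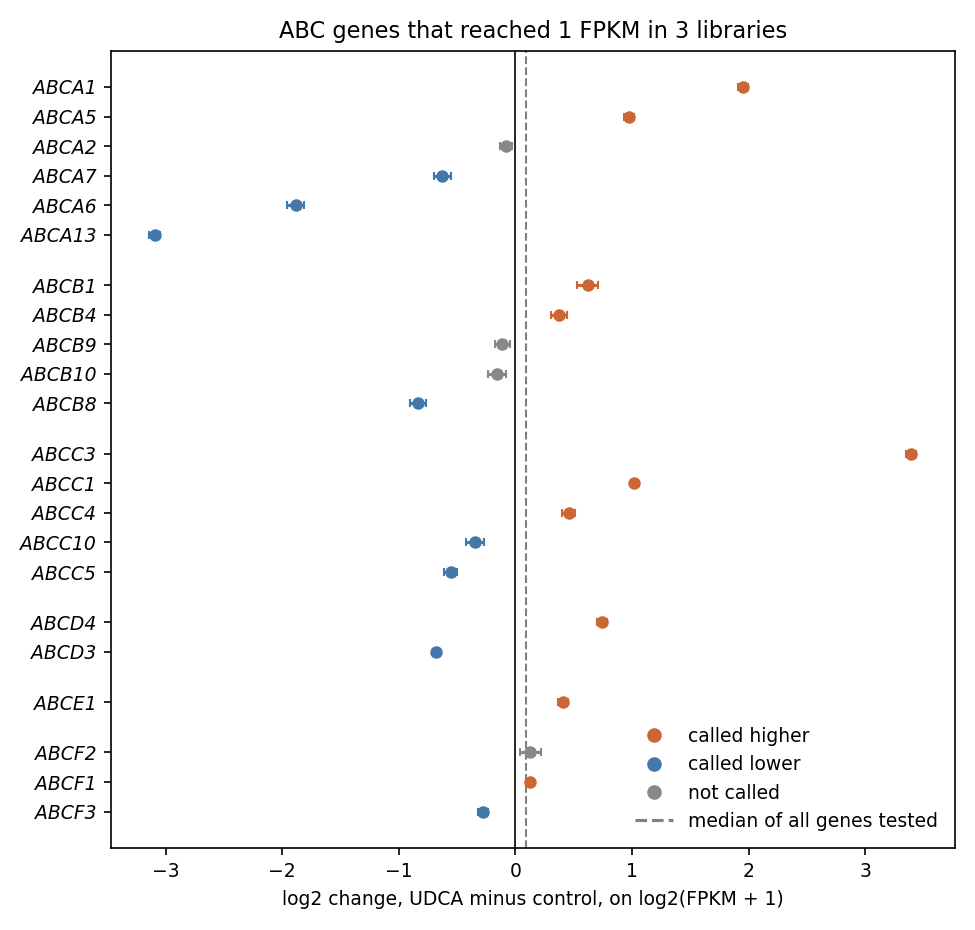
Log2 change (UDCA minus control, on log2(FPKM + 1), horizontal axis) of 22 of the 24 ABC genes tested, by subfamily from ABCA at the top to ABCF at the bottom; bars are standard errors and the dashed line is the median of all genes tested (0.095). The points spread to both sides, from -3.09 for ABCA13 to 3.40 for ABCC3.

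Among the bile salt exporters, ABCC3 and ABCC4 rose, while ABCC2 and ABCB11 were too low to be tested. ABCC3 (ENSG00000108846, chromosome 17, 50634777 to 50692252, plus strand, GRCh38), the basolateral exporter also known as MRP3, was at 2.41, 2.42 and 2.70 FPKM in control replicates 1 to 3. It was at 35.9, 34.9 and 37.0 FPKM in UDCA replicates 1 to 3, on totals of 1247 and 17286 reads. The lowest treated library stood far above the highest control library. The means, 2.51 ± 0.161 and 35.95 ± 1.04 FPKM, differ 14.3-fold, with a log2 change of 3.40 (SE 0.044, limma adjusted p = 3.26e-09).

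ABCC4 (chromosome 13, 95019829 to 95301475, minus strand), or MRP4, which exports bile salts with glutathione as well as cyclic nucleotides, began at nearly the level of ABCC3. Its control libraries gave 2.38, 2.48 and 2.23 FPKM and its UDCA libraries 3.56, 3.49 and 3.81 FPKM. The groups did not overlap, and the rise was 1.53-fold (log2 change 0.46, SE 0.057, limma adjusted p = 0.000225). ABCC2 (chromosome 10, 99782640 to 99852594), the canalicular exporter MRP2, was under the minimum level. It stood at 0.299, 0.185 and 0.259 FPKM in control and at 0.223, 0.202 and 0.286 with UDCA, on 100 and 93 reads, and the groups overlapped. Voom on reads gave ABCC2 a log2 change of -0.05 (SE 0.27, adjusted p = 0.875). ABCB11 (chromosome 2, 168915498 to 169031324), the bile salt export pump of the hepatocyte canaliculus, had a total of 13 reads in control (0.0467, 0.0151 and 0.0365 FPKM) and of 2 with UDCA (0.0081, 0.0076 and 0 FPKM). At that depth no level could be compared.

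Of the sterol exporters, ABCA1 rose and ABCG1 was too low to be tested. ABCA1 (chromosome 9, 104781002 to 104928237, minus strand), which loads cholesterol and phospholipid onto apolipoprotein A-I, gave 1.42, 1.51 and 1.45 FPKM in control and 8.42, 8.47 and 8.64 FPKM with UDCA. No treated library came near the control range. The rise was 5.82-fold, with a log2 change of 1.95 (SE 0.043, limma adjusted p = 3.18e-08). ABCG1 (chromosome 21, 42199689 to 42297244), which exports sterol to high-density lipoprotein, gave 0.815, 0.769 and 0.801 FPKM in control and 1.13, 0.853 and 1.11 FPKM with UDCA. Only 2 of its libraries reached 1 FPKM, so it was not tested; the ratio of means was 1.30. With no filter on low values it was not called (limma adjusted p = 0.194), whereas voom on reads called it higher (adjusted p = 0.0371, log2 change 0.36, SE 0.16).

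Ratios within a library were taken for 3 pairs of exporters. Only ABCC3 over ABCA1 sets a bile salt exporter against a sterol exporter. ABCC3 over ABCA1 was 1.69, 1.61 and 1.85 in control replicates 1 to 3 and 4.27, 4.13 and 4.28 in UDCA replicates 1 to 3. The ratio was higher in each treated library than in any control library, with means 1.30 apart on the log2 scale. ABCC3 over ABCC4 went from 1.01, 0.976 and 1.21 to 10.1, 10.0 and 9.72, a shift of 3.23 on the log2 scale. ABCA1 over ABCG1 went from 1.75, 1.96 and 1.82 to 7.42, 9.93 and 7.80, a shift of 2.18. In all 3 ratios the groups were apart, and each gave p = 0.1 in a 2-sided exact permutation test over libraries, also after adjustment over the 3, which is the smallest p that 3 against 3 allows. The sum of ABCC2, ABCC3 and ABCC4 went from 5.12 ± 0.0509 to 39.8 ± 1.24 FPKM, 7.77-fold, and that of ABCA1 and ABCG1 from 2.26 ± 0.0178 to 9.54 ± 0.212 FPKM, 4.23-fold. With UDCA the first sum was mostly ABCC3 (35.95 FPKM). ABCC4 rose 1.53-fold, less than ABCA1 (5.82-fold), and ABCC2 overlapped between groups, so the larger rise of the first sum does not hold for each bile salt exporter.

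**Figure D2:**
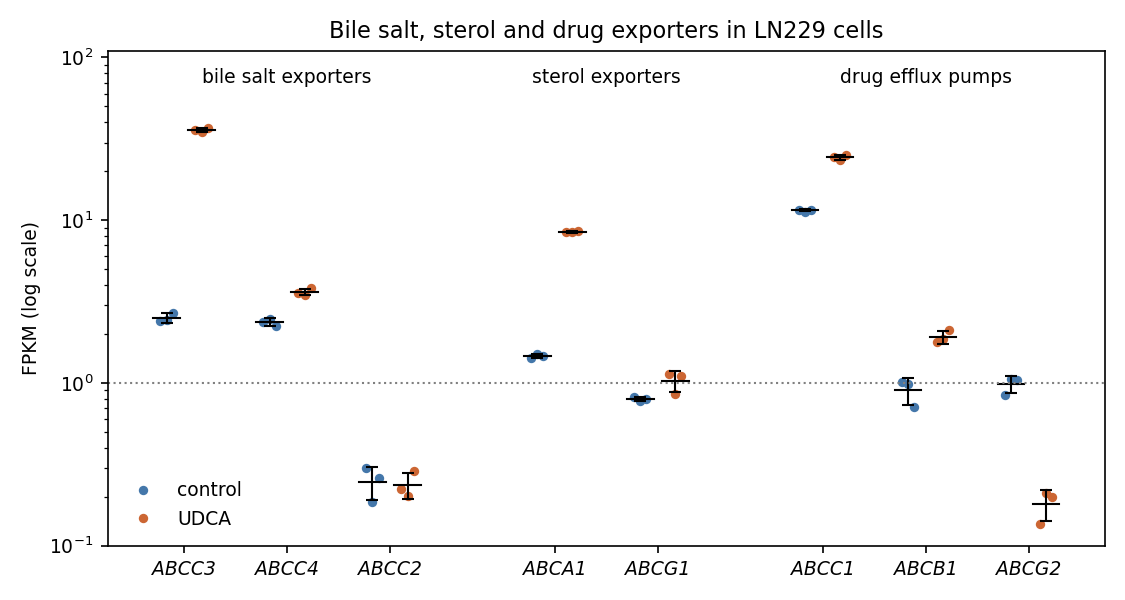
FPKM (log axis) of bile salt exporters, sterol exporters and drug efflux pumps in each library; points are libraries, horizontal lines are means and error bars are SD over 3 libraries, and the dotted line marks 1 FPKM. ABCC3 goes from about the level of ABCC4 to 35.95 FPKM, ABCC2 overlaps between groups, and ABCG2 drops below the control range.

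Promoter sequence is shown for the rising exporters that have an entry in the RefSeq promoter table (GRCh38.p14), in which 35 of the 45 genes matched; ABCC3 and ABCG1 are not among them. The stretches run 5′ to 3′ toward the gene and stop where the annotated gene begins. For ABCA1 (chr9:104928238-104928405, minus strand) the capitals mark CACGTG, an E-box, a motif added after the sequence was seen. For ABCC4 (chr13:95301476-95301701, minus strand) they mark a match, on the opposite strand, to TGACNNNGC, the core of the antioxidant response element.
ABCA1: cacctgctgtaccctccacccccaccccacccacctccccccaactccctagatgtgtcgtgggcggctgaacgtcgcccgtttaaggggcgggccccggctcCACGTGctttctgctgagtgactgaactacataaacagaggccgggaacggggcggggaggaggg
ABCC4: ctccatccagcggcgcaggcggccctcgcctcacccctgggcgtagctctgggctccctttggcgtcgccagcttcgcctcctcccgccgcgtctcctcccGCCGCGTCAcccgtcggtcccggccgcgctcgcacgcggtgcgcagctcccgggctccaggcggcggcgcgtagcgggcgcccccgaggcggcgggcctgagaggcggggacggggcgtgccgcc
Over the 250 bases before the start, on both strands, TGACNNNGC was found in 9 of 53 promoters of ABC genes and in 10.9% of all 35116 promoters. The 9 genes were ABCC4, ABCD4 and ABCF1, which were called higher, ABCC10, called lower, ABCA2 and ABCB9, not called, and ABCA3, ABCB6 and ABCG4, not tested. CACGTG was in 9 of the 53, from 8 genes, and in 6.34% of all. The 8 genes were ABCA1 and ABCF1, called higher, ABCC10, called lower, ABCB9, not called, and ABCA12, ABCA9, ABCB6 and ABCG2, not tested. The consensus direct repeat bound by LXR, in its exact form, was in none of the 53 and in 0.0142% of all. A match is a description of letters in this window and not a site.

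The drug efflux pumps split. ABCC1 (chromosome 16, 15949577 to 16143074), or MRP1, a pump for glutathione conjugates, gave 11.6, 11.3 and 11.6 FPKM in control and 24.6, 23.4 and 25.0 FPKM with UDCA. It rose 2.12-fold, with groups far apart (log2 change 1.02, SE 0.033, limma adjusted p = 2.04e-07). ABCB1 (chromosome 7, 87503633 to 87713323), P-glycoprotein, gave 1.01, 0.981 and 0.709 FPKM in control and 1.78, 1.86 and 2.11 FPKM with UDCA, a 2.13-fold rise (log2 change 0.62, SE 0.092, limma adjusted p = 0.000587). ABCB1 entered that test through the UDCA libraries, with only 1 control library at 1 FPKM, and with no filter limma gave adjusted p = 0.00333. Its neighbour and close paralog ABCB4, the phosphatidylcholine floppase of the canaliculus, rose 1.49-fold from 1.52 ± 0.147 to 2.26 ± 0.108 FPKM (adjusted p = 0.00172). Reads that fit both paralogs make these values uncertain. ABCG2 (chromosome 4, 88090264 to 88231322), the breast cancer resistance protein, went the other way, from 0.846, 1.06 and 1.04 FPKM to 0.136, 0.209 and 0.199 FPKM, on 256 and 46 reads. It missed the minimum by a single library; by the ratio of means it was 5.41-fold lower, and it was called lower both with no filter (limma adjusted p = 0.000544) and with voom on reads (adjusted p = 1.18e-08).

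ABCA13 had the lowest log2 change on log2(FPKM + 1) among the tested ABC genes, while by the ratio of means its fall was about that of ABCA6. It encodes a very large transporter of the lipid-moving ABCA subfamily and lies on chromosome 7 (48171458 to 48647496, plus strand). Its control libraries gave 11.9, 11.2 and 11.6 FPKM and its UDCA libraries 0.446, 0.464 and 0.500 FPKM, on 11364 and 449 reads. The fall was 24.6-fold by the ratio of means, with a log2 change of -3.09 (SE 0.049, limma adjusted p = 7.75e-09). ABCA13 entered that test through the control libraries only, and with no filter limma gave adjusted p = 1.16e-07. By mean FPKM in control it ranked 2 of the 40 ABC transporter genes listed, after the peroxisomal ABCD3. ABCC1 was at nearly the same level (11.5 ± 0.156 FPKM) and stood above ABCA13 in control replicate 2. Its promoter stretch (chr7:48171208-48171457, plus strand) is shown because, among the 53 ABC promoters, it alone held TGATGNAA, a core form of the element bound by ATF4. The capitals mark that match, which is on the opposite strand.
ABCA13: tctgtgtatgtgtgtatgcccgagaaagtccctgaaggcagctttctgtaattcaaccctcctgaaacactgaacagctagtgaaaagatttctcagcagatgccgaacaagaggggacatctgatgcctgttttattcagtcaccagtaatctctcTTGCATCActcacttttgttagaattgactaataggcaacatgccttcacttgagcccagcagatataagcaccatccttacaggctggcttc
The motif was in 3.14% of all promoters over the same length.

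A cluster of 5 ABCA genes on chromosome 17 held members that fell and a member that rose. In order along the chromosome these are ABCA8 (68867292 to 68955392), ABCA9 (68974488 to 69061064), ABCA6 (69078702 to 69141888), ABCA10 (69147214 to 69244846) and ABCA5 (69244311 to 69327244), all on the minus strand and held to have arisen by local duplication. ABCA6 gave 3.10, 3.45 and 2.96 FPKM in control and 0.128, 0.129 and 0.129 FPKM with UDCA. It fell 24.7-fold on 2315 and 91 reads (log2 change -1.88, limma adjusted p = 4.82e-07). ABCA6 entered that test through the control libraries only, and with no filter limma gave adjusted p = 8.43e-06. ABCA8 was 17.04-fold lower by the ratio of means (0.633 ± 0.111 and 0.0372 ± 0.00809 FPKM, 367 and 21 reads), and ABCA9 25.4-fold lower (0.331 ± 0.0509 and 0.0130 ± 0.0111 FPKM, 156 and 6 reads). Both were under the minimum, and both were called lower with no filter (limma adjusted p = 0.000388 and 0.00051) and with voom on reads (adjusted p = 1.49e-10 and 5.77e-09). ABCA10 overlapped between groups at 0.139 ± 0.0430 and 0.0950 ± 0.00842 FPKM, on 60 and 40 reads. ABCA5, a lysosomal and endosomal member at the end of the cluster, rose from 2.71, 2.72 and 2.75 FPKM to 6.53, 6.34 and 6.08 FPKM, 2.32-fold (log2 change 0.97, limma adjusted p = 1.03e-06). Exons of ABCA5 and ABCA10 overlap over 2.42% of the ABCA5 exon bases, and the other exon bases of ABCA5 lie in no exon of another annotated gene.

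**Figure D3:**
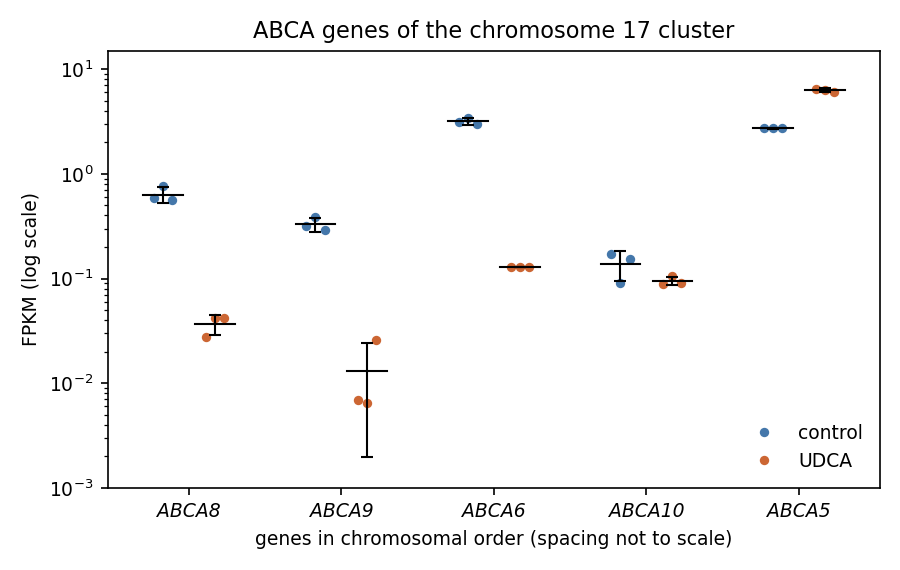
FPKM (log axis) of the 5 ABCA genes of the chromosome 17 cluster in each library, in chromosomal order with spacing not to scale; horizontal lines are means and error bars are SD over 3 libraries. ABCA8, ABCA9 and ABCA6 lie far lower with UDCA, ABCA10 overlaps, and ABCA5 lies higher.

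The other ABCA members were mixed. ABCA7, a phospholipid exporter linked to amyloid handling, gave 1.87, 2.08 and 1.79 FPKM in control and 0.904, 0.806 and 0.943 FPKM with UDCA, and fell 2.16-fold (log2 change -0.63, limma adjusted p = 0.000147). ABCA7 entered that test through the control libraries only, and with no filter limma gave adjusted p = 0.00112. ABCA2, a lysosomal lipid transporter abundant in brain, did not pass at 10.6 ± 0.196 and 9.95 ± 0.723 FPKM (adjusted p = 0.182); without UDCA replicate 3 it was called lower (adjusted p = 0.0116). ABCA3, which loads surfactant lipid into lamellar bodies in lung, stood at 0.196 ± 0.0166 and 0.661 ± 0.0312 FPKM, 3.37-fold apart, under the minimum; it was called higher with no filter (limma adjusted p = 0.00104) and with voom on reads (adjusted p = 6.04e-08). ABCA12, a skin lipid transporter, overlapped between groups at 0.436 ± 0.119 and 0.603 ± 0.176 FPKM and was called higher by voom on reads only (adjusted p = 0.0447). The retinal member ABCA4 had 3 and 12 reads.

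In the rest of the ABCC subfamily, both tested members fell. ABCC5, a nucleotide analogue and cyclic nucleotide exporter, went from 5.60 ± 0.155 to 3.50 ± 0.245 FPKM, 1.60-fold lower (log2 change -0.55, limma adjusted p = 6.4e-05). ABCC10, a broad-range drug exporter, fell 1.37-fold from 3.59 ± 0.333 to 2.61 ± 0.220 FPKM (adjusted p = 0.00452). The other 5 were under the minimum: the sulfonylurea receptor gene ABCC8 at 0.238 ± 0.0597 and 0.117 ± 0.0303 FPKM, ABCC6 at 0.0790 ± 0.0212 and 0.104 ± 0.0541, and ABCC11 at 0.0613 ± 0.0151 and 0.0169 ± 0.0173. ABCC6 has near-identical pseudogene copies, so its reads are uncertain. ABCC12 had 5 and 0 reads, and ABCC9, the other sulfonylurea receptor gene, had 0 and 2. Of these 5, voom on reads called ABCC8 (lower, adjusted p = 0.00122).

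Organelle members of the family also went both ways. In mitochondria, ABCB8 has been described as part of an ATP-sensitive potassium channel, and ABCB10 protects haem-forming cells from oxidative stress. ABCB8 gave 5.38, 6.23 and 5.85 FPKM in control and 3.03, 2.83 and 2.59 FPKM with UDCA, and fell 2.06-fold (log2 change -0.84, limma adjusted p = 2.31e-05). ABCB10 did not pass at 6.89 ± 0.364 and 6.10 ± 0.682 FPKM (adjusted p = 0.098); it was called lower without UDCA replicate 1 (adjusted p = 0.026). ABCB6, a porphyrin transporter, stood below the minimum (0.362 ± 0.0658 FPKM in control, 0.537 ± 0.0838 with UDCA) and was called higher by voom on reads (adjusted p = 0.0349). Exons of another annotated gene cover 54.7% of its exon bases.

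Among the peroxisomal importers of fatty acyl-CoA, ABCD3, which takes in branched and very long chain forms, fell 1.66-fold from 15.8 ± 0.374 to 9.51 ± 0.0842 FPKM (log2 change -0.68, limma adjusted p = 9.26e-07). ABCD2, another peroxisomal importer, had 39 reads in control and 0 with UDCA, which makes it at least 12.6-fold lower if the UDCA group is given a floor of 3 reads; with no filter it was called lower (limma adjusted p = 0.0162). ABCD4, which serves vitamin B12 export from lysosomes, rose 1.86-fold from 3.58 ± 0.0111 to 6.66 ± 0.207 FPKM (adjusted p = 2.8e-06). ABCB9, a lysosomal peptide transporter, did not pass at 2.77 ± 0.155 and 2.49 ± 0.151 FPKM (adjusted p = 0.132), and 24.5% of its exon bases lie inside exons of other genes.

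ABCE1 and the ABCF genes carry the nucleotide-binding domains without a membrane part and act in translation. ABCE1, the ribosome recycling factor, rose 1.35-fold from 13.3 ± 0.557 to 17.96 ± 0.690 FPKM (log2 change 0.41, limma adjusted p = 8.19e-05). ABCF1 was 1.09-fold higher, 30.5 ± 1.08 and 33.4 ± 0.822 FPKM (adjusted p = 0.0109), a call that was lost when libraries were scaled by the median ratio of genes (adjusted p = 0.377) or by totals without mitochondrial genes (adjusted p = 0.0599). ABCF3 fell 1.24-fold from 9.96 ± 0.374 to 8.05 ± 0.346 FPKM (adjusted p = 0.000858). ABCF2 did not pass (3.68 ± 0.371 and 4.12 ± 0.463 FPKM, adjusted p = 0.208), and 45.8% of its exon bases lie inside exons of another annotated gene.

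The ABCG subfamily, sterol and drug transporters that work as dimers, had no member at the minimum level. Beside ABCG1 and ABCG2, the brain sterol exporter ABCG4 stood at 0.170 ± 0.0275 and 0.0315 ± 0.0300 FPKM (55 and 10 reads) and was called lower with no filter (limma adjusted p = 0.00795) and with voom on reads (adjusted p = 0.000116). ABCG5 and ABCG8, the paired sterol exporter of liver and gut, had 4 and 9 reads in control and 0 and 1 with UDCA.

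Among the sums over the listed members of ABCA, ABCC, ABCF and ABCG, that of ABCC differed most between the groups. ABCC went from 26.2 ± 0.330 to 70.5 ± 2.44 FPKM, 2.69-fold, and without ABCC3 its sum went from 23.7 ± 0.469 to 34.5 ± 1.46 FPKM. That remainder includes ABCC1, which went from 11.5 ± 0.156 to 24.3 ± 0.870 FPKM. The 7 ABCC members other than ABCC1 to ABCC4 summed to less with UDCA, 9.58 ± 0.385 and 6.35 ± 0.491 FPKM. ABCA went from 33.1 ± 0.531 to 27.7 ± 0.749 FPKM, with groups apart, whereas ABCF overlapped at 44.2 ± 1.45 and 45.5 ± 0.822 FPKM. The fall of the ABCA sum came from ABCA13, which went from 11.6 ± 0.367 to 0.470 ± 0.0277 FPKM. That is a larger fall than that of the sum, so the other ABCA members together were higher with UDCA. They did not all rise: of those tested, ABCA1 and ABCA5 were called higher, ABCA6 and ABCA7 lower, and ABCA2 was not called. ABCG went from 1.99 ± 0.0817 to 1.25 ± 0.145 FPKM. These sums are a description with no test. ABCC3 took 2.15%, 2.14% and 2.38% of the summed FPKM of the 40 transporter genes in control replicates 1 to 3 and 24.4%, 24.7% and 24.9% in UDCA replicates 1 to 3. By mean FPKM it went from rank 15 of the 40 in control to rank 1 with UDCA, and ABCA1 from rank 19 to rank 5.

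**Figure D4:**
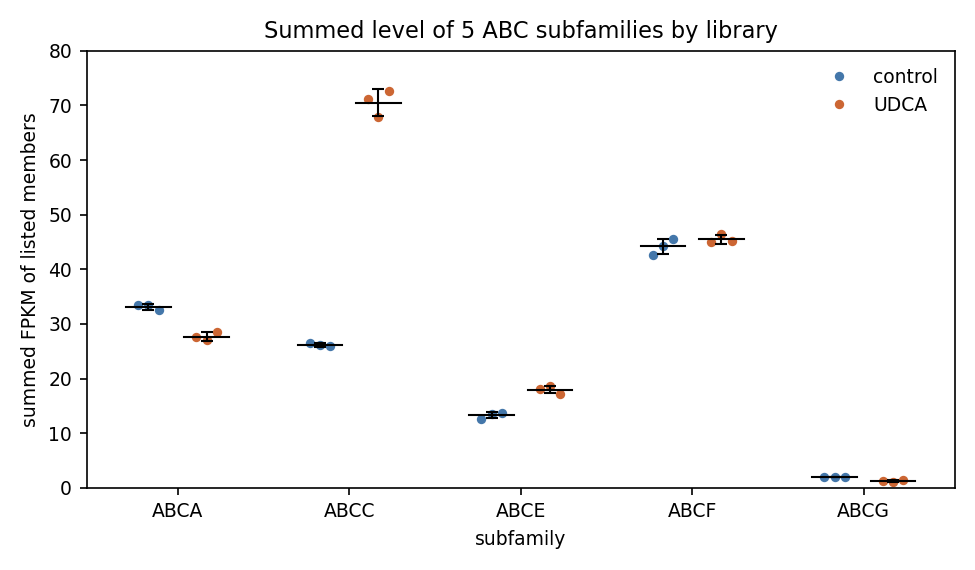
Summed FPKM of the listed members of 5 ABC subfamilies (vertical axis, from 0) in each library; horizontal lines are means and error bars are SD over 3 libraries. ABCC stands at 70.5 FPKM with UDCA against 26.2 in control, while ABCF overlaps between groups.

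Other genes of bile acid and sterol handling were taken from fixed lists. No carrier for bile acid uptake or basolateral exchange reached the minimum level. Of 8, 6 were listed, and the uptake carrier SLC10A1 (NTCP) stood at 0.180 ± 0.0908 and 0.0676 ± 0.0432 FPKM. SLC51A, a chain of the exchanger OST, stood at 0.488 ± 0.0445 and 0.450 ± 0.00650 FPKM, while its partner SLC51B had 1 and 0 reads. SLCO2B1, an organic anion uptake carrier, had 0 reads in control and 133 with UDCA, at least 45.7-fold higher if the control group is given a floor of 3 reads. Of 8 bile acid enzymes 4 were listed, and CYP7A1, CYP8B1, SULT2A1 and UGT2B4 were not. Only CYP7B1, the oxysterol hydroxylase, was tested, and it fell 2.21-fold from 8.87 ± 0.112 to 4.02 ± 0.302 FPKM (limma adjusted p = 2.4e-06). CYP27A1, on 68 and 15 reads, was called lower with no filter (limma adjusted p = 0.00358) and with voom on reads (adjusted p = 0.000102). BAAT, on 17 and 0 reads, was called lower with no filter (limma adjusted p = 0.00333). SLC27A5 was called in neither.

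Of 14 receptors and regulators 13 were listed and 8 tested; 6 were higher, none was lower and 2 (RXRA and RXRB) were not called, where of all genes tested 80.8% were called, 45.1% higher and 35.7% lower. The median log2 change was 0.54 over the 8 and 0.095 over all genes tested. The LXR genes NR1H2 and NR1H3 rose 1.81-fold, to 32.8 ± 2.27 FPKM, and 1.47-fold, to 2.41 ± 0.113 FPKM. NFE2L2, which encodes NRF2, rose 2.33-fold from 21.1 ± 0.106 to 49.3 ± 2.26 FPKM, and PPARA, a fatty acid receptor, rose 2.17-fold to 6.53 ± 0.176 FPKM. AHR, the aryl hydrocarbon receptor, was at 13.7, 13.5 and 8.27 FPKM in UDCA replicates 1 to 3, against a control mean of 6.86 ± 0.589 FPKM (adjusted p = 0.0103), and its SD with UDCA, 3.06 FPKM, was the largest of the 8. VDR rose 1.38-fold to 9.26 ± 0.309 FPKM. NR1H4, a bile acid receptor gene, was not listed, and its target NR0B2 had 3 and 8 reads. None of the 5 listed genes under the minimum was called with no filter. Voom on reads called NR1I3 lower (0.274 ± 0.0878 and 0.138 ± 0.0419 FPKM, adjusted p = 0.0442). GPBAR1 overlapped between groups, on 31 and 15 reads.

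Partners of ABCA1 and ABCG1 in cholesterol efflux divided evenly. Of 10, 8 were tested, of which 3 were higher, 3 lower and 2 (APOE and SOAT1) not called, against 80.8% called among all genes tested (45.1% higher and 35.7% lower). The median log2 change was 0.088 over the 8 and 0.095 over all genes tested. PLTP, the phospholipid transfer protein, rose 2.83-fold to 25.3 ± 1.27 FPKM. NPC1, which releases cholesterol from lysosomes, rose 2.46-fold from 7.91 ± 0.228 to 19.4 ± 0.402 FPKM, while its lumenal partner NPC2 fell 1.58-fold to 17.1 ± 0.668 FPKM. LCAT, which esterifies cholesterol on lipoproteins, was the third that rose, 1.67-fold. SCARB1, the receptor for high-density lipoprotein, fell 2.34-fold from 28.3 ± 0.399 to 12.1 ± 0.460 FPKM, and MYLIP, an LXR target that degrades the LDL receptor, fell 4.03-fold to 3.01 ± 0.243 FPKM.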

How the data were processed

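Per the labels' protocols, 6 Illumina TruSeq libraries were built from polyadenylated RNA. HISAT2, Bowtie2 2.0.6 and GRCh38 appear in the submitters' processing notes; which program counted reads, with which strand setting and filters, is not given in the sources used here. For the deposited values the unit was inferred as FPKM: each value times the merged exon length in GENCODE 29 was a whole number of reads (tolerance 0.01) for 100% of values in each library. Coordinates equal GENCODE 29 for 33873 of 33890 genes; the other 17 are mitochondrially encoded.

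Tests used limma 3.58.1 (trend, 2-sided, group as the only term) in R 4.3.3 on log2(FPKM + 1), for genes that reached 1 FPKM in 3 or more libraries, with Benjamini-Hochberg adjustment. The same test was run on simulated data in which far fewer genes changed, which cannot check calls under so broad a change. Tables and plots used Python 3.11.15. Pairs of libraries within a group gave chi-square values per degree of freedom between 1.67 and 2.73, above sampling noise, and each counted as 1 sample. Values in every library are given for the bile salt and sterol exporters, the drug pumps and tested ABC genes with a 2-fold ratio of means. The ABC genes, gene lists and motifs were chosen with earlier results of these data known. Alternatives were another pseudocount, no filter, 3 scalings, a replicate block, leaving out each library, and voom on recovered reads. Results of 2 ABC genes are not reported here, though the counts over the family include them.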

Additional observations from a re-analysis of the deposited data

How the results depend on the processing

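All 20 ABC genes called kept their call and direction with a pseudocount of 0.1, no filter, quantile normalization, voom on recovered reads and each library left out; 19 did so with median-ratio scaling and with totals without mitochondrial genes, both losing ABCF1. No tested ABC gene reversed. The ABC genes called lower, 9 in the reported test, were 14 with no filter on low values and 16 with voom on genes with a mean of at least 10 reads, an alternative added after seeing the data; both test more genes (33890 and 16764, of which 42.6% and 80.6% were called). ABCB10, ABCA2 and ABCB9 were called lower under some scalings or under voom. Leaving out 1 library gave 11218 to 11381 called genes. With the replicate number as a block, 11503 genes were called, in place of 11624, and the same 20 ABC genes. The numbers do not pair the libraries: deviations of same-numbered libraries correlated at 0.014, -0.0012 and 0.0072 across genes, and not every library correlated best with its own number. Depth limits ABC genes with few reads: 6 of the 20 untested ones had under 20 reads in all libraries. The ratios between exporters were computed in a single way.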
